A study of Mus musculus with 16 samples.

Results

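The probes described here had their highest wild-type level at P21 and stood lower at the younger age and at both older ages. They came from a microarray study of whole testis in C57BL/6 mice, in which Emi2 knockout animals were set against wild-type animals at 4 ages, named by postnatal day as P15, P21, P30 and P60. Each of the 8 groups (Emi2 knockout at the 4 ages, wild type at the 4 ages) held 2 Illumina bead arrays, 16 in all, and each array reads the brightness of beads that carry one short probe. Members were chosen by wild-type levels and 1 limit on a knockout level. A probe was taken when its P21 wild-type mean lay at least 0.7 above the P15, the P30 and the P60 wild-type means in the log2 table the authors deposited, and when its P60 knockout mean was no more than 0.5 above its P21 wild-type mean. This gave 32 of 25689 regular probes, or 0.125%. None of the 822 rows in the control range of identifiers met the same criteria (0 of 822).

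Germ cells of the young testis enter spermatogenesis in a first, roughly synchronous wave. Spermatogonia give rise to spermatocytes, which pass through meiosis and become round and then elongating spermatids, so the cell types that make up the whole organ change with age. In whole-tissue RNA, fewer cells of a type and less RNA per cell cannot be told apart. Emi2, the product of Fbxo43, inhibits the anaphase-promoting complex, a ubiquitin ligase that drives cells out of division, and it is best known for holding the mature egg arrested in meiosis until fertilisation. The allele that was removed, the cells in which it was removed and the number of animals behind each array are not given in the sources used here. Whether paired arrays represent different mice is not stated, so the p-values reflect array-to-array spread that may be technical.

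Probes are given by identifier only, because levels did not bear the gene names out. The rows that went against their names lie in the control range, and the values of regular probes do not settle their names. In the control range, the rows named Actb, Gapdh and Eef1a1, genes that nearly every cell transcribes strongly, had median signals over the arrays of 176.5, 171.4 and 224.4, whereas the median signal of the regular probes lay between 132.5 and 213.7 per array. Of 31 regular probes named for markers of spermatids, spermatocytes, spermatogonia, Sertoli cells, Leydig cells, macrophages or endothelium, 20 (64.5%) were above background on each of the P60 wild-type arrays, against 47.8% of all regular probes. By list these were 3 of 4, 5 of 8, 2 of 2, 2 of 3, 2 of 4, 4 of 6 and 2 of 4. The probe named Fbxo43 read 11.005 ± 0.20 in Emi2 knockout and 11.01 ± 0.21 in wild type at P15, 9.29 ± 0.39 and 9.31 ± 0.45 at P21, 8.73 ± 0.30 and 10.25 ± 0.10 at P30, and 9.31 ± 0.07 and 10.40 ± 0.06 at P60 (log2 signal, SD, n = 2 each). Since that name is not borne out, it checks no genotype label, and the testis label could not be checked against marker genes. The gene table gave a symbol to 29 of the 32 probes, and none is used.

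The levels below are log2 signals after background correction and quantile normalization, and deposited log2 values, used for the selection and for margins of 0.7, are named where they are given. The wild-type P21 peak had margins, P21 mean minus the highest other wild-type mean in deposited log2 values, of 0.70 to 2.15. These values chose the probes and are a description. The other wild-type age with the highest mean was P30 for 15 probes, P15 for 10 and P60 for 7. Just inside the margin lay ILMN_2933151 at 0.702, ILMN_2758840 at 0.716 and ILMN_2818717 at 0.718, and just outside lay ILMN_1257200 at 0.690, ILMN_2673252 at 0.687 and ILMN_2866327 at 0.681. The limit on the P60 knockout mean removed 1 probe, ILMN_2431594, at 0.56 above its P21 wild-type mean. The highest values kept were 0.33 for ILMN_1241310, 0.064 for ILMN_2758168 and 0.062 for ILMN_1222123.

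The peak was carried by both P21 wild-type arrays in most of the probes and by 1 array in the others. In 21 probes both P21 wild-type arrays lay above all 6 other wild-type arrays, in 5 only replicate 1 did (ILMN_2512740, ILMN_3080300, ILMN_3063650, ILMN_1222123 and ILMN_2818717), and in 6 only replicate 2 (ILMN_2663211, ILMN_1241310, ILMN_1220793, ILMN_2960128, ILMN_2932993 and ILMN_2758840). Without P21 wild type replicate 1 the criteria were met by 63 probes, of which 25 were among the 32, and without P21 wild type replicate 2 by 41, of which 18 were.

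**Figure D1:**
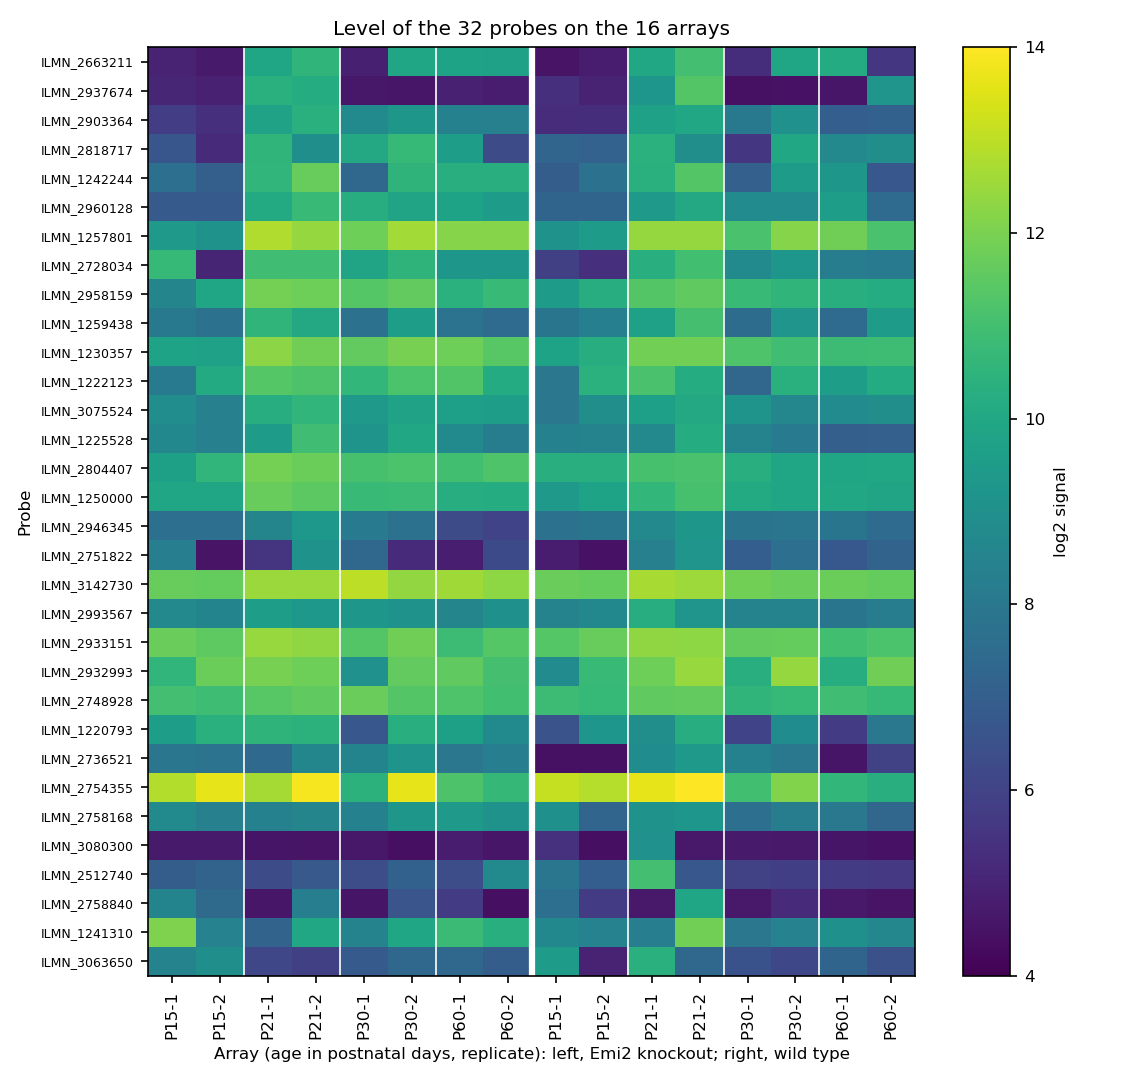
Log2 signal (colour, 4 to 14) of the 32 probes (rows) on the 16 arrays (columns, age and replicate), with Emi2 knockout arrays left of the thick line and wild-type arrays right of it. Rows are ordered by the knockout difference between P21 and P15, from 5.39 at the top to -2.71 at the bottom, and both P21 columns are bright in both genotypes for most rows in the upper part.

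The arrays of P15, P21 and P30 knockout testis were not used in choosing the probes. They are not a fully independent check, since same-numbered P21 arrays of knockout and wild type deviated together (correlation 0.478 across tested probes). On these knockout arrays the peak recurred in part. By the same margin in deposited log2 values, 10 of the 32 probes (31.3%) had a P21 knockout mean at least 0.7 above both the P15 and the P30 knockout mean, and this held for 25 of all regular probes (0.0973%). These 10 made up 40% of the 25 probes with a knockout peak. Their margins in knockout ran from 0.71 to 3.13. A further 9 probes were at least 0.7 higher at P21 than at P15 but did not come down by 0.7 at P30, which makes 19 with such an increase, against 6.29% of regular probes. Another 3 came down without the increase, and 10 did neither. P30 Emi2 knockout replicate 1 weighed on this count. Without it 3 of the 32 probes met the margin in knockout, and without P30 Emi2 knockout replicate 2 it was 12.

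ILMN_2937674 had the largest wild-type margin and the sharpest course. In Emi2 knockout it read 5.07 and 4.93 at P15, 10.37 and 10.20 at P21, 4.66 and 4.60 at P30 and 4.94 and 4.79 at P60. In wild type it read 5.35 and 4.99 at P15, 9.25 and 11.34 at P21, 4.47 and 4.50 at P30 and 4.59 and 9.21 at P60. It was on at P21 and not well above background at P15 and P30 in knockout. Wild type differed by 1 P15 array above background, at a low reading, and by 1 high P60 array, replicate 2. In knockout it was at least 35.5-fold higher at P21 than at P15 (limma adjusted p = 0.00124) and at least 32.8-fold lower at P30 than at P21 (limma adjusted p = 0.0171). The second call, the only one among the 32 probes at that step, was lost without P21 Emi2 knockout replicate 2, without P30 Emi2 knockout replicate 1 and without P30 Emi2 knockout replicate 2, with differences of -5.72, -5.66 and -5.62, and the first held without each array in turn.

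The rise up to P21 was the part of the course that knockout arrays showed most often. In knockout, 18 of the 32 probes were higher at P21 than at P15 at a limma adjusted p under 0.05, against 13.3% of 17355 tested probes, and 0 were lower, against 18%, with 31.3% of tested probes called either way (unadjusted p under 0.05, 21 higher and 1 lower). Both P21 arrays lay above both P15 arrays in 23 probes, against 27.1% of tested probes, and below them in 3, against 39.3%. The median difference was 1.48 over the 32 probes and -0.11 over all tested probes. For the 16 called probes with a measured P15 level the rise ran from 0.77 to 4.47 on the log2 scale. The other 2, ILMN_2937674 and ILMN_2663211, have only a lower bound, which leaves the median as it is. Without P15 Emi2 knockout replicate 2 the count was 10, and 10 of the 18 calls held without each of the 16 arrays in turn.

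ILMN_2903364 had the firmest knockout rise. It read 5.83 and 5.35 at P15, 9.76 and 10.37 at P21, 8.73 and 9.27 at P30 and 8.41 and 8.36 at P60 in Emi2 knockout. Its wild-type arrays read 5.26 and 5.31 at P15, 9.71 and 10.01 at P21, 8.06 and 9.06 at P30 and 6.98 and 7.10 at P60. The P21 arrays did not overlap with those of any other age in either genotype, and the knockout difference between P21 and P15 was 4.47 ± 0.32 (SE, limma adjusted p = 2.14e-07). At P60 the knockout arrays stood above the wild-type arrays.

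ILMN_1257801 and ILMN_1230357 were brighter, and in knockout they rose at P21 without meeting the margin for a fall at P30. ILMN_1257801 read 9.42 and 9.10 at P15, 12.81 and 12.43 at P21, 11.79 and 12.61 at P30 and 12.19 and 12.18 at P60 in Emi2 knockout and 9.14 and 9.54 at P15, 12.41 and 12.43 at P21, 11.11 and 12.17 at P30 and 11.83 and 11.14 at P60 in wild type, and its knockout rise was 3.36 ± 0.36 (SE, limma adjusted p = 9.86e-06). ILMN_1230357 read 9.79 and 9.74 at P15, 12.24 and 11.83 at P21, 11.61 and 11.97 at P30 and 11.80 and 11.39 at P60 in Emi2 knockout and 9.81 and 10.25 at P15, 11.89 and 11.88 at P21, 11.23 and 10.92 at P30 and 10.87 and 10.91 at P60 in wild type. Its rise was 2.27 ± 0.24 (SE, limma adjusted p = 9.86e-06). For both probes all later knockout arrays stayed above the P15 knockout arrays, and so did the later wild-type arrays above the P15 wild-type arrays. In knockout the P30 arrays overlapped the P21 arrays in both probes.

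Smaller rises, with no gap over 1 between the arrays of any group, came from ILMN_1250000, ILMN_2804407, ILMN_3075524 and ILMN_2946345. The spread was not small in all of them. ILMN_2804407 read 9.67 and 10.56 on the P15 knockout arrays, and ILMN_2946345 read 8.54 and 9.35 on the P21 knockout arrays. ILMN_1250000 read 9.87 and 9.91 at P15, 11.67 and 11.47 at P21, 10.78 and 10.82 at P30 and 10.24 and 10.19 at P60 in Emi2 knockout and 9.38 and 9.78 at P15, 10.63 and 11.07 at P21, 10.11 and 9.90 at P30 and 9.99 and 9.86 at P60 in wild type. Its knockout rise was 1.68 ± 0.22 (SE, limma adjusted p = 6.79e-05). ILMN_2804407, ILMN_3075524 and ILMN_2946345 rose by 1.71, 1.78 and 1.28 (limma adjusted p = 0.000304, 0.000937 and 0.00407). ILMN_2946345 was the one of them whose P60 knockout arrays, 6.33 and 5.99, lay below its P15 knockout arrays, 7.65 and 7.67, whereas its P60 wild-type arrays read 7.88 and 7.51. Of the remaining calls that held without each array, ILMN_2960128 rose by 3.61 and ILMN_2958159 by 2.65 (limma adjusted p = 7.83e-05 and 8.16e-05).

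**Figure D2:**
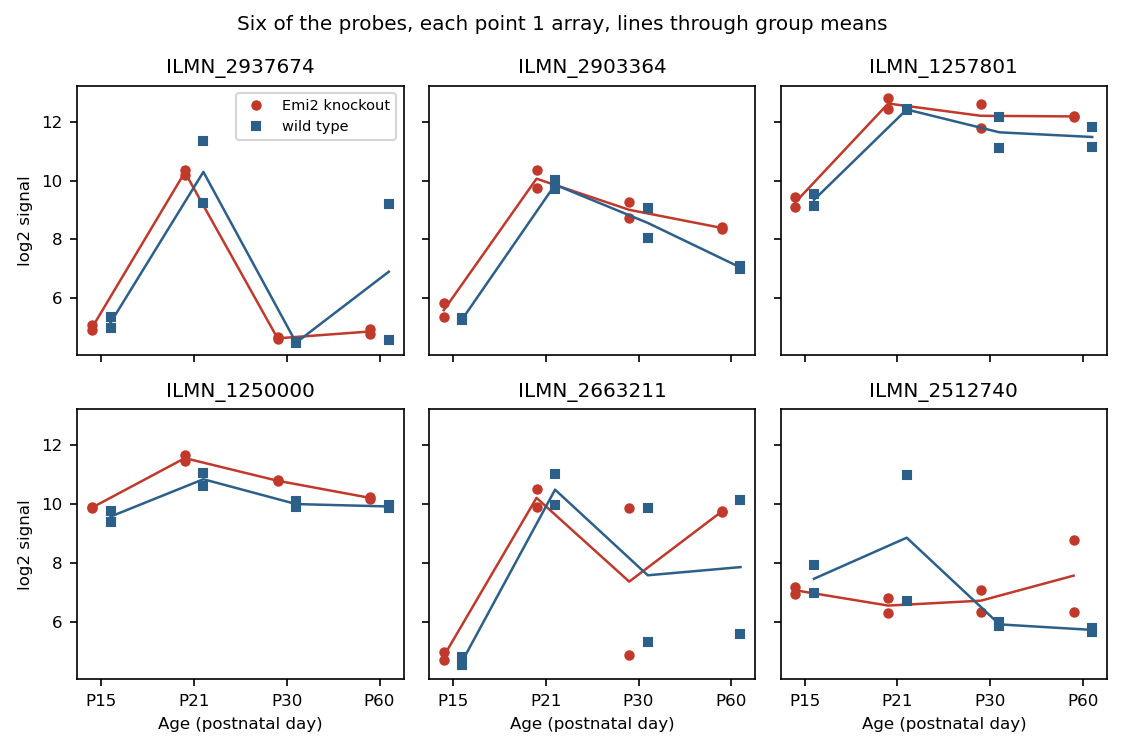
Log2 signal against age for 6 of the probes, with each point 1 array, red circles for Emi2 knockout, blue squares for wild type and lines through the group means. ILMN_2937674, ILMN_2903364 and ILMN_1250000 peak at P21 in both genotypes, the P30 knockout arrays of ILMN_1257801 overlap its P21 knockout arrays, ILMN_2663211 has 1 high and 1 low array at P30 in both, and ILMN_2512740 has 1 high P21 wild-type array.

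Other large knockout rises rested on probes whose arrays lay far apart. ILMN_2663211 read 4.96 and 4.71 at P15, 9.90 and 10.53 at P21, 4.86 and 9.87 at P30 and 9.79 and 9.73 at P60 in Emi2 knockout and 4.54 and 4.80 at P15, 9.96 and 11.03 at P21, 5.30 and 9.86 at P30 and 10.14 and 5.58 at P60 in wild type. Each array was either low, at 4.54 to 5.58, or high, at 9.73 to 11.03, with 1 of each kind at P30 in both genotypes. In knockout it was at least 33.9-fold higher at P21 than at P15 (limma adjusted p = 0.019), a call lost without any one of the 4 arrays compared, at differences of 5.06 to 5.69.

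ILMN_1242244 and ILMN_2818717 also had arrays far apart. ILMN_1242244 read 7.65 and 7.02 at P15, 10.57 and 11.67 at P21, 7.34 and 10.52 at P30 and 10.27 and 10.27 at P60 in Emi2 knockout and 6.95 and 7.74 at P15, 10.35 and 11.34 at P21, 7.08 and 9.54 at P30 and 9.30 and 6.73 at P60 in wild type, and rose by 3.78 ± 0.99 in knockout (SE, limma adjusted p = 0.0101). Its call was lost without P15 Emi2 knockout replicate 2 (3.48) or P21 Emi2 knockout replicate 2 (3.23). ILMN_2818717 read 6.68 and 5.21 at P15, 10.53 and 8.97 at P21, 10.04 and 10.71 at P30 and 9.62 and 6.34 at P60 in Emi2 knockout and 7.26 and 7.13 at P15, 10.39 and 8.93 at P21, 5.59 and 9.94 at P30 and 8.70 and 8.93 at P60 in wild type, and rose by 3.81 ± 1.17 (SE, limma adjusted p = 0.0236), lost without P15 Emi2 knockout replicate 2 (3.08) or P21 Emi2 knockout replicate 1 (3.02). The other 5 called probes were ILMN_1225528, ILMN_1259438, ILMN_2933151, ILMN_2993567 and ILMN_3142730, with rises of 1.72, 2.41, 0.77, 0.82 and 0.84 (limma adjusted p = 0.0142, 0.0171, 0.0231, 0.0478 and 0.0112). ILMN_1225528 was lost without P15 Emi2 knockout replicate 2 (1.58) or P21 Emi2 knockout replicate 2 (1.01). Each of the other 4 was lost without P15 Emi2 knockout replicate 1, without P15 Emi2 knockout replicate 2 and without P21 Emi2 knockout replicate 1, at differences of 2.16 to 2.59 for ILMN_1259438, 0.69 to 0.86 for ILMN_2933151, 0.70 to 0.93 for ILMN_2993567 and 0.81 to 0.87 for ILMN_3142730. ILMN_2993567 was lost without 12 of the 16 arrays taken singly, and also with the replicate number as a block (0.82, limma adjusted p = 0.055).

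**Figure D3:**
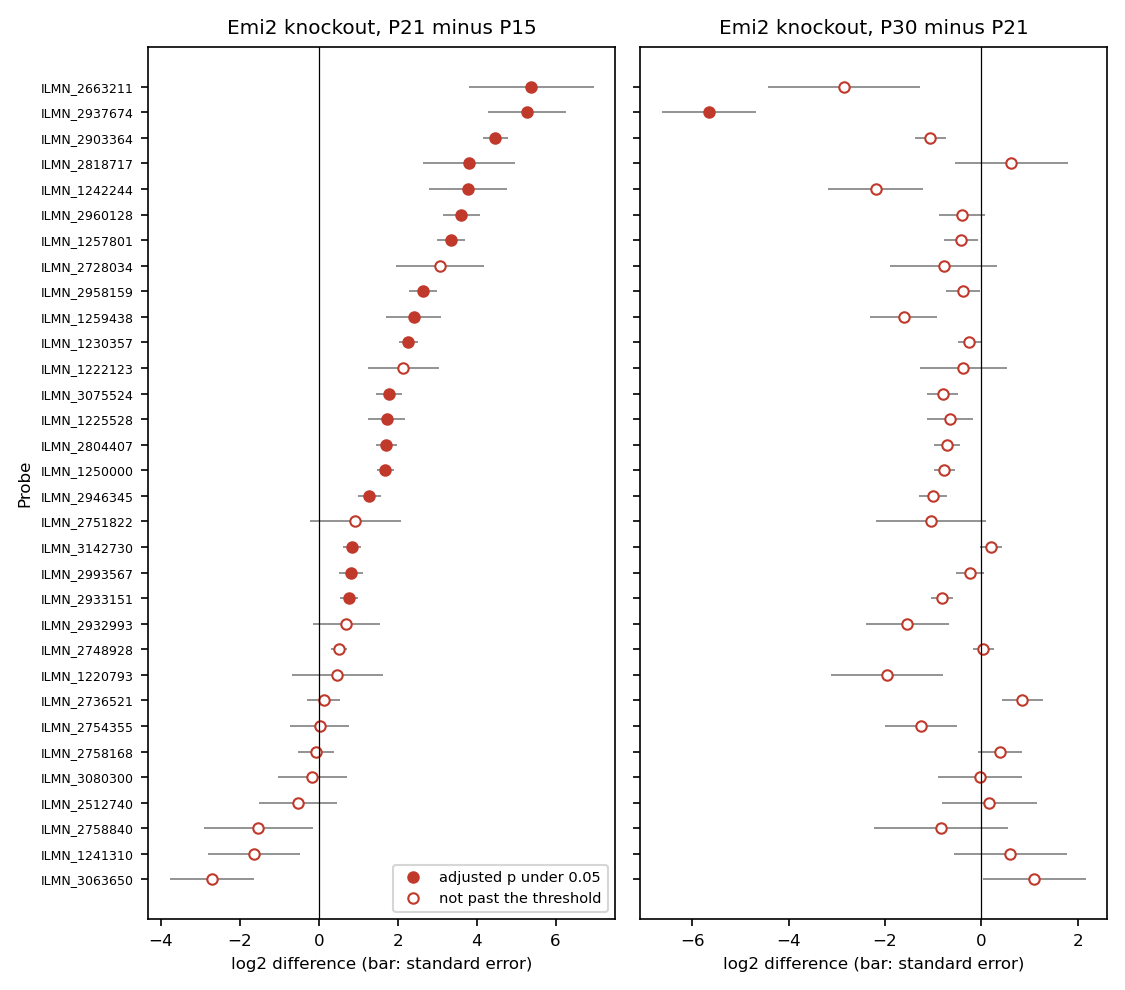
Log2 difference within Emi2 knockout testis for each of the 32 probes, P21 minus P15 on the left and P30 minus P21 on the right, with bars of 1 standard error. Filled points passed a limma adjusted p of 0.05, which 18 probes did on the left, all of them above 0, and 1 did on the right, ILMN_2937674 at a fitted -5.65.

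The step after P21 gave few calls in knockout. Of the 32 probes, 0 were higher and 1 lower at P30 than at P21 at a limma adjusted p under 0.05, against 0.674% and 0.346% of tested probes, 1.02% either way (unadjusted p under 0.05, 0 higher and 9 lower). The P30 knockout mean was below the P21 knockout mean in 24 probes, among them ILMN_3080300, which was above background on no knockout array. The share of tested probes with a lower P30 mean was not counted. The median difference over the 32 probes was -0.68, against -0.03 over all tested probes, so a lower P30 mean was common among those as well. Both P30 arrays lay below both P21 arrays in 16 probes, against 24.6% of tested probes, and above them in 1, against 19.7%. Without P30 Emi2 knockout replicate 1 the median was -0.25 and the count of calls 0. The largest values after ILMN_2937674 were -2.85 for ILMN_2663211, -2.19 for ILMN_1242244, -1.96 for ILMN_1220793 and -1.61 for ILMN_1259438, none past the threshold. The nearest to it were ILMN_1250000, ILMN_2946345 and ILMN_2933151, at -0.77, -0.999 and -0.82 (limma adjusted p = 0.109, 0.11 and 0.111).

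Probes that went up at P21 and stayed up in wild type gave a different picture at this step. There were 1908 regular probes with a wild-type increase of at least 0.7 between P15 and P21 and no later decrease of that size. In knockout, 70.6% of them were higher at P21 than at P15 by the limma test, and their median difference was 1.43, close to the 1.48 of the 32 probes. Their median knockout difference between P30 and P21 was 0.41. A fall of at least 0.7 in deposited log2 values over that step was seen in 13 of the 32 probes (40.6%), in 3 of these 1908 (0.157%) and in 0.958% of all regular probes. No test was run on this difference, and 1 array of P30 knockout bears on it as above. The 13 include all 6 probes, described below, whose P30 replicate 1 was below replicate 2 by over 1 in both genotypes.

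At P30 many of the probes were still above their P15 level in knockout. The limma test called 11 of the 32 higher at P30 than at P15, against 19% of tested probes, and 0 lower, against 27.3%, with 46.3% called either way (unadjusted p under 0.05, 13 higher and 0 lower). Both P30 arrays lay above both P15 arrays in 16 probes, against 31.3% of tested probes, and below them in 4, against 42.5%. The median difference was 0.85, against -0.12 over all tested probes. Of the 18 probes called higher at P21, 10 were also called higher at P30, and ILMN_2748928 was called at P30 alone, by 0.56 (limma adjusted p = 0.0436). Both differences use the same P15 arrays. The share of all probes called higher at P21 that were also called higher at P30 was not counted. ILMN_2903364, ILMN_2960128, ILMN_1257801, ILMN_2958159 and ILMN_1230357 stood 3.42, 3.21, 2.94, 2.26 and 2.02 above P15 (limma adjusted p = 1.88e-06, 0.000107, 2e-05, 0.000156 and 1.74e-05). These 5 calls, with those of ILMN_1250000 and ILMN_3142730, held without each array in turn. ILMN_2804407, ILMN_2818717, ILMN_3075524 and ILMN_2748928 lost theirs without at least 1 array, ILMN_2804407 without P15 Emi2 knockout replicate 1 (0.56), ILMN_2818717 without P15 Emi2 knockout replicate 2 (3.71), ILMN_3075524 without P15 or P30 Emi2 knockout replicate 2 (0.70 and 0.79), and ILMN_2748928 without 9 of the 16 arrays taken singly.

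By P60 the knockout course had split. ILMN_2663211 read 9.79 and 9.73 on the P60 knockout arrays, against 9.90 and 10.53 at P21. ILMN_1242244 read 10.27 and 10.27, against 10.57 and 11.67 at P21, below both P21 arrays and above both P15 arrays. ILMN_1259438, at 7.81 and 7.48, was back at its P15 level of 8.05 and 7.71, and ILMN_2754355, the brightest of the 32, stood at 11.19 and 10.66, against 12.86 and 13.62 at P15. Since the P60 knockout mean entered the selection as an upper limit, these values are a description.

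The remaining 14 probes passed no test of the knockout rise and went several ways. ILMN_2728034 read 10.95 and 10.93 at P21 in knockout but 10.71 and 5.04 at P15, so its difference of 3.07 had a limma adjusted p of 0.0507. ILMN_1222123 likewise differed between the P15 knockout arrays, 8.15 and 10.12, with P21 arrays at 11.35 and 11.21. ILMN_2748928 differed by 0.51 with tight arrays (limma adjusted p = 0.0805). The most negative value was that of ILMN_3063650, at -2.71 (limma adjusted p = 0.0691). ILMN_2758168, ILMN_2754355, ILMN_2736521, ILMN_1220793, ILMN_2932993 and ILMN_2751822 differed by -0.08, 0.02, 0.12, 0.47, 0.70 and 0.93, with limma adjusted p-values of 0.586 to 0.986.

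Some of these probes had no P21 peak outside 1 wild-type array. ILMN_3080300 read 5.43 and 4.43 at P15, 9.07 and 4.69 at P21, 4.72 and 4.67 at P30 and 4.55 and 4.49 at P60 in wild type, and no knockout array was above background. ILMN_2512740 read 6.95 and 7.19 at P15, 6.30 and 6.80 at P21, 6.34 and 7.09 at P30 and 6.35 and 8.79 at P60 in Emi2 knockout and 7.94 and 6.99 at P15, 11.002 and 6.72 at P21, 5.98 and 5.85 at P30 and 5.79 and 5.65 at P60 in wild type. ILMN_2758840 read 8.51 and 7.45 at P15, 4.60 and 8.29 at P21, 4.57 and 6.65 at P30 and 5.72 and 4.40 at P60 in Emi2 knockout and 7.66 and 5.76 at P15, 4.69 and 9.93 at P21, 4.69 and 5.24 at P30 and 4.69 and 4.51 at P60 in wild type. In each of these probes 1 P21 wild-type array was high. The other lay below both P15 wild-type arrays in ILMN_2512740 and ILMN_2758840 and between them in ILMN_3080300. ILMN_1241310 had its highest reading on a P15 knockout array, 12.05, beside 8.42 on the other.

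At P15 and P21 the genotypes had close medians, and at P30 and P60 knockout stood higher. For the 4 ages in order, the difference of knockout minus wild-type means had medians over the 32 probes of 0.09, -0.03, 0.72 and 0.71, beside medians over all tested probes of -0.00, 0.11, 0.26 and 0.29. Single probes ran from -1.25 to 3.43, from -2.85 to 0.86, from -1.02 to 2.61 and from -2.03 to 2.86. Knockout was the higher in 18, 15, 27 and 27 of the 32, against 49.7%, 61.8%, 67.6% and 64.6% of tested probes. The selection asked for low wild-type means at P15, P30 and P60 and a high one at P21, which moves these differences by itself, so they carry no test. ILMN_2818717 had the highest value at P30, 2.61, followed by ILMN_1222123 at 2.08, ILMN_1225528 at 1.28 and ILMN_2960128 at 1.22. ILMN_2751822 and ILMN_2932993 had the lowest, -1.02 and -1.01, then ILMN_2663211 at -0.22 and ILMN_3080300 at -0.16, the last not above background in either genotype.

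Among probes with the highest P30 differences, the spread between the arrays at P30 varied. ILMN_2960128 read 10.23 and 9.85 in knockout and 8.83 and 8.82 in wild type at P30. ILMN_1225528 read 9.17 and 9.98 in knockout and 8.46 and 8.12 in wild type. In both the genotypes did not overlap. For ILMN_2818717 they did not overlap either, but the wild-type arrays read 5.59 and 9.94, beside 10.04 and 10.71 in knockout. ILMN_2736521 stood apart at P15 and P60, at 7.94 and 7.81 in knockout against 4.44 and 4.44 in wild type at P15, and at 7.95 and 8.27 against 4.57 and 5.93 at P60, while its P21 knockout arrays, 7.41 and 8.58, were below the wild-type arrays, 8.85 and 9.43.

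**Figure D4:**
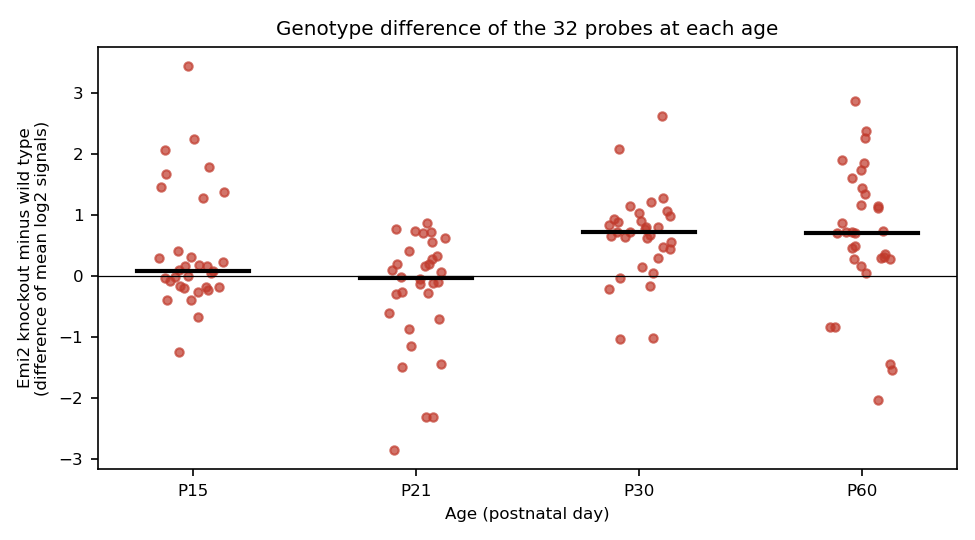
Difference of mean log2 signals, Emi2 knockout minus wild type, at each age, with each point 1 of the 32 probes and a black line at the median. The medians from P15 to P60 are 0.09, -0.03, 0.72 and 0.71, and the selection fixed part of this course.

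The 32 probes differed more between the 2 arrays of a group than most probes did, also on arrays the selection did not use. The root-mean-square (RMS) log2 difference between the arrays of P15, P21 and P30 knockout was 1.52, 1.199 and 1.63 over the 32 probes, against 0.39, 0.56 and 0.49 over all tested probes. In 15 of the 32 (46.9%) at least one of these knockout groups had a gap over 1, against 10.95% of tested probes. No gap over 1 in any of the 8 groups was found for 9 probes, against 76.8% of tested probes. Of these 9 probes, 8 passed the test of the knockout rise. Small gaps, by which the 9 were picked, also make that test easier to pass. The like share among tested probes was not counted, so the 8 are a description. The 9 are ILMN_2993567, ILMN_2946345, ILMN_3142730, ILMN_1230357, ILMN_1250000, ILMN_3075524, ILMN_2804407, ILMN_2748928 and ILMN_2933151, a group formed after the values were seen. Median signals of the P21 arrays, 181.9 and 181.0 in knockout and 181.3 and 150.5 in wild type, lay within the range of the other arrays. The number of regular probes detected ran higher on 3 of these 4 arrays: it was 14053 and 14630 on the P21 knockout arrays and 14508 and 14498 on the P21 wild-type arrays, against at most 14412 on any other array, and its part in the P21 levels was not tested.

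A set of 6 probes moved with the replicate number at P30 in both genotypes. In ILMN_1242244, ILMN_2663211, ILMN_1259438, ILMN_1220793, ILMN_2754355 and ILMN_2932993, replicate 1 was below replicate 2 by over 1 in knockout and in wild type, as in 0.467% of tested probes (81 of 17355). The selection asked for a low P30 wild-type mean, which 1 low P30 wild-type array helps to meet, so these shares are not a like comparison. Without P30 wild type replicate 1 the criteria were met by 30 probes, 24 of them among the 32. Without P30 wild type replicate 2 they were met by 29, of which 27 were. ILMN_1220793 read 6.71 and 10.26 in knockout and 6.01 and 8.85 in wild type, and ILMN_2932993 read 9.06 and 11.60 in knockout and 10.26 and 12.42 in wild type. Over all 32 probes, replicate 1 at P30 was the lower in 24 in knockout and in 20 in wild type. The median of replicate 1 minus replicate 2 was -0.55 and -0.11, against 0.02 and 0.06 over all tested probes. The labels do not say what a replicate number stands for, and its part in the fall after P21 was not tested beyond the values without single arrays given above.

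**Figure D5:**
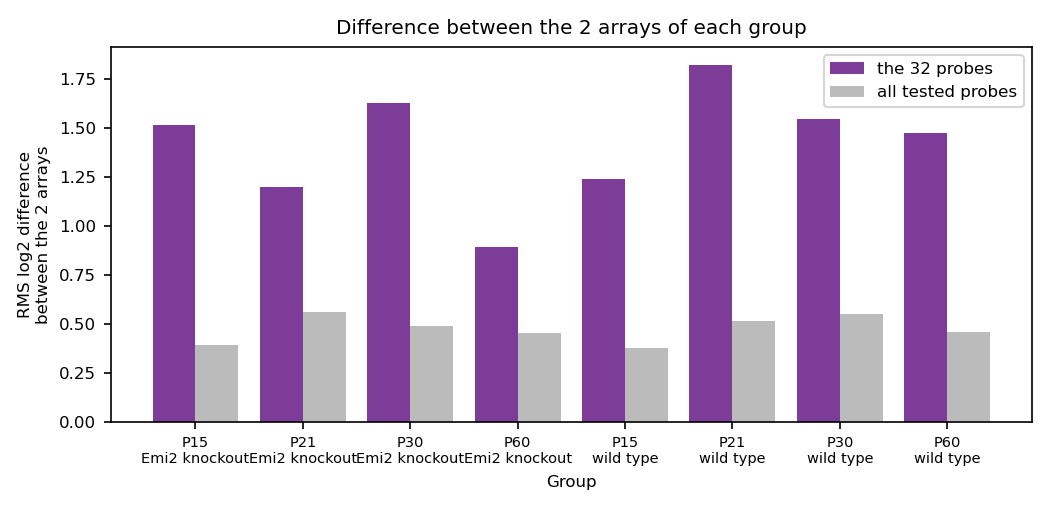
Root-mean-square log2 difference between the 2 arrays of each group, with the 32 probes in purple and all tested probes in grey, Emi2 knockout groups left and wild-type groups right, each by age. The purple bars run from 0.89 to 1.82 and the grey bars from 0.38 to 0.56.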

How the data were processed

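RNA of whole testis was measured on 16 Illumina bead arrays, 2 for each genotype and age. The age labels, titles and design give P15 for the youngest age and the growth protocol gives another day, and P15 was used. The deposited intensity table holds signals with no background correction or normalization, per the file headers. The deposited table also gives a detection p-value per probe and array, per the file headers. In regular probes it rises with the signal, so it was read as 1 minus p. The second deposited table holds log2 values, recomputed here by quantile normalization of the log2 intensities over all 26511 rows to within 0.00276, so its scale is known and its genes are not centred (column medians 7.39). The submitters' processing notes name limma. Rows in the control range of identifiers, 822, were left out, of which 815 had a detection value that ran against the signal.

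The selection was applied to the deposited log2 values. For levels and tests, intensities were background corrected with normexp (parameters from the detection p-values, offset 16) and quantile normalized on the log2 scale. Tests took the probes detected (p under 0.05) on 2 arrays or more, 17355 in all, and all 32 selected probes were among them. Probes were not merged by gene name. One linear model of 8 group means was fitted to the 16 arrays with limma 3.58.1 in R 4.3.3 (8 residual and 5.81 prior degrees of freedom), with Benjamini-Hochberg adjustment over all tested probes and a threshold of 0.05. The fit was tested on simulated arrays. A probe detected on neither array of a group has only a bound there, written "at least N-fold", set against the mean over that group's arrays of the higher of its own signal and the lowest signal among detected probes. The number of arrays limits the precision. Only steps between P15, P21 and P30 knockout arrays were tested, since the selection used or was biased by every other contrast. These steps are not fully independent of the selection either, as same-numbered P21 arrays of knockout and wild type deviated together. Besides the probes with the largest margin, the largest changes in knockout and those at the selection's edges, the remaining members were named to account for all 32. The members, lists and tests were chosen with earlier results of these data known. Alternatives were other background, normalization and filter choices, the knockout arrays alone, a replicate block, and leaving out each array.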

Additional observations from a re-analysis of the deposited data

Results flagged for a closer look

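Probes ILMN_3063650, ILMN_2758168 and ILMN_2804407 moved in opposite directions in knockout and wild type, on every array of the groups compared. They were picked out by a search of all selected probes over pairs of ages. The share of tested probes that meet the same criterion was not counted, so these moves are a description. In knockout alone, both P30 arrays lay above both P21 arrays in 19.7% of tested probes, so arrays that do not overlap are common. In ILMN_3063650 the knockout level was higher by 1.10 at P30 and by 1.15 at P60 than at P21, whereas the wild-type level changed by -2.51 and -2.005. In ILMN_2758168 the knockout level was higher by 0.78 at P60 than at P21, and the wild-type level changed by -1.52. In ILMN_2804407 the knockout level was higher by 0.99 at P60 than at P15, and the wild-type level changed by -0.36. The wild-type direction after P21 was fixed by the selection, and the difference between genotypes was not tested. The P21 wild-type arrays of ILMN_3063650 read 10.33 and 7.38, a gap of 2.95.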

How the results depend on the processing

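The number of selected probes, 32, was 90 with a margin of 0.5, 10 with a margin of 1 and 82 on the background-corrected values, where 31 of the 32 were kept, and 29 to 63 when arrays were left out in turn. The count with a knockout peak, 10, was 22 and 4 with those margins and 3 to 12 when knockout arrays were left out. Leaving out each array gave 10 to 19 calls for knockout P21 minus P15, 0 to 2 for P30 minus P21 and 8 to 12 for P30 minus P15. For P30 minus P21 the 1 call became 2 without background correction, 2 with the deposited log2 values and 3 when the background was estimated from control rows, all lower. In that last setting the background SD was 1918 to 3087, against 7.93 to 13.95 from the detection p-values, which shrank most differences, and 9 of the 30 calls named were lost. The knockout arrays alone lost 2 (ILMN_2933151 for P21 minus P15, ILMN_2748928 for P30 minus P15), no filter on dim probes 2 (ILMN_2818717 and ILMN_2993567, P21 minus P15) and the replicate block 1 (ILMN_2993567, P21 minus P15). Other counts of calls stayed within 1.5 times under every alternative run apart from those above, and no called difference changed sign. For knockout P21 minus P15, 1 of the calls was lower with the knockout arrays alone and without any one P15 or P21 wild-type array. For P30 minus P15, 1 was lower with the knockout arrays alone and 2 without P30 Emi2 knockout replicate 2. With the replicate block there were 18, 1 and 12 calls, and in the first 17 were higher and 1 lower. Across probes, deviations of same-numbered arrays had correlations of -0.217, -0.041 and 0.213 between knockout ages, and of 0.048, 0.478, 0.122 and 0.160 between knockout and wild type at P15, P21, P30 and P60. Not every value was over 0.1 in either set, so the numbers were not taken as pairs, though same-numbered P21 arrays deviated together. With 2 arrays per group, a p-value that missed the threshold does not show equal levels, and dim probes have only bounds.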
